A study of Mus musculus with 12 samples.

Results

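The nuclear genes for oxidative phosphorylation were followed in the prefrontal cortex of mice raised with and without microbes. They were the protein-coding genes whose symbols begin with Ndufa, Ndufb, Ndufc, Ndufs, Ndufv, Uqcr, Cox4, Cox5, Cox6, Cox7, Cox8 or Atp5, together with Sdha, Sdhb, Sdhc and Sdhd. This gave 93 members of the 41388 genes counted, spread over 19 chromosomes. They comprised 36 subunits of complex I, 4 of complex II, 8 of complex III, 19 of complex IV and 16 of complex V, and 10 assembly and other factors that share the prefixes.

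The inner mitochondrial membrane holds the respiratory chain, in which complexes I and II take electrons from NADH and succinate, complex III passes them to cytochrome c and complex IV passes them to oxygen. Complexes I, III and IV pump protons as they do so, and complex V, the ATP synthase, uses the returning protons to make ATP. Neurons depend heavily on this ATP to restore ion gradients, and all subunits of complex II and most of those of the other complexes are encoded in the nucleus, the rest in mitochondrial DNA.

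PolyA RNA was sequenced from Swiss Webster males aged 10 weeks in 3 groups. CON mice were conventionally raised, GF mice were germ-free, and exGF mice were germ-free until they were colonized from postnatal day 21. Each group had 4 libraries, each made from the pooled RNA of 2 to 3 animals, so that a p-value here measures the spread between pools and not between animals. The exGF libraries are named GFR1 to GFR4, as their counts are, because these names do not give a sample number. Read pairs counted on genes ranged from 13280926 in GF replicate 1 to 29134760 in CON replicate 3. Levels are given in CPM, counts brought to a common library size, here by edgeR's trimmed-mean (TMM) scaling over the 12 libraries.

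The tissue label was held against marker genes. The excitatory neuron markers summed to 6908 CPM in GFR1, their lowest library, and the astrocyte markers to 1037 CPM in GF replicate 1, theirs. Skeletal muscle markers summed to 10.8 to 14.1 CPM. Striatal markers, which belong to a neighbouring region, summed to 216 CPM in CON replicate 2 and 225 CPM in GFR4, against 105 to 139 CPM in the other libraries.

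The members were well measured in cortex. In sum they took 1.16% of the counts in CON, and 91 of the 93 were tested in each comparison. Cox8c had 0 counts in every library and Cox8b at most 6, so neither passed the filter on low counts. Scaled by exon length, the most abundant members of each complex were Ndufa1 at 169 CPM per kb, Sdha at 103, Uqcr11 at 184, Cox8a at 591 and Atp5a1 at 281 CPM per kb. The median subunit stood at 54.1 CPM per kb in complex I, 70.2 in complex II, 109 in complex III, 53.8 in complex IV and 67.0 in complex V. The factors were lower, with a median of 8.66 CPM per kb and a highest level of 68.1 CPM per kb for Cox7a2l. Members had short transcripts: the median coding length of the 91 was 704 bases, against 2267 for protein-coding genes that passed the filter.

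Some libraries stood apart from the rest of their group. The members summed to 12074, 13199, 11429 and 9254 CPM in CON replicates 1 to 4, to 12648, 11795, 11982 and 11554 CPM in GF, and to 11461, 8842, 10616 and 11889 CPM in GFR1 to GFR4. CON replicate 4 and GFR2 were therefore low and CON replicate 2 high, and the CON range enclosed every GF library. Group means were 11489 ± 1660 CPM for CON, 11995 ± 469 for GF and 10702 ± 1348 for exGF (SD, n = 4).

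The same libraries stood out gene by gene. GFR2 was the lowest of the 12 libraries for 59 of the 91 members and CON replicate 4 for 21, so these libraries held the minimum of 87.9% of the members, against 19.5% of all genes passing the filter. CON replicate 2 held the maximum of 43 members. As a deviation from the CON mean on the log2 CPM scale, the median member lay at 0.09, 0.25, 0.01 and -0.36 in CON, at 0.17, 0.05, 0.06 and 0.02 in GF, and at 0.00, -0.38, -0.10 and 0.07 in exGF. CON thus spanned nearly the whole range, while the GF libraries lay close together.

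CON replicate 4 and GFR2 were the lowest libraries in every complex and in the factors. The highest was GF replicate 1 in complexes II and IV and CON replicate 2 in the others and the factors. The range over the 12 libraries was smallest in complex II (0.37) and the factors (0.40). In CON replicate 4 the median deviation was -0.36 for complex I, -0.13 for complex II, -0.40 for complex III, -0.44 for complex IV, -0.34 for complex V and -0.17 for the factors. In GFR2 it was -0.41, -0.19, -0.49, -0.49, -0.38 and -0.13 in the same order. In GF replicate 1 the highest median of the complexes was that of complex IV, at 0.30.

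**Figure D1:**
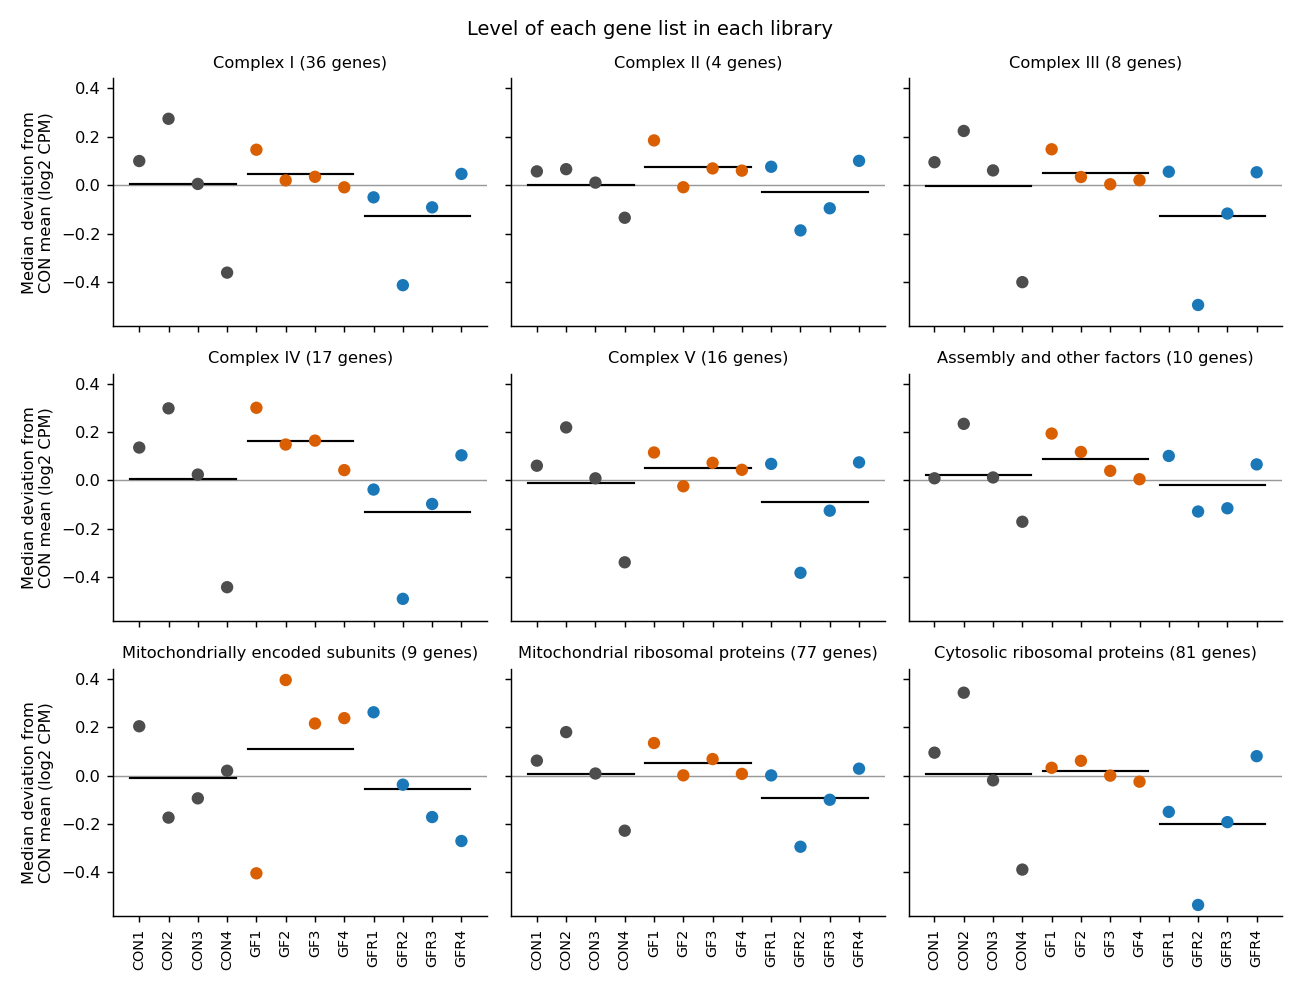
Median deviation from the CON mean (log2 CPM) in each of the 12 libraries, for each complex, the factors and lists of other genes. For all members together, which are not drawn, CON replicate 4 (-0.36) and GFR2 (-0.38) were the lowest libraries and CON replicate 2 (0.25) the highest.

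Ribosomal protein genes had their extremes in the same libraries. For 81 cytosolic ribosomal protein genes the median deviation was 0.34 in CON replicate 2, -0.39 in CON replicate 4 and -0.53 in GFR2. For 77 mitochondrial ribosomal protein genes it was 0.18, -0.23 and -0.29. Across the 12 libraries the range was 0.64 for the members and 0.88 for cytosolic ribosomal proteins, against 0.24 for tricarboxylic acid cycle genes and 0.28 for glycolysis genes. The subunits encoded in mitochondrial DNA followed another order, from -0.40 in GF replicate 1 to 0.39 in GF replicate 2. GFR2 also had the largest percentage of read pairs outside genes, 7.31% against a lowest value of 4.57% in CON replicate 1. What set these libraries apart was not tested.

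Within the members the deviations varied with transcript length. In GFR2 the median was -0.57 for the 32 members with coding transcripts under 600 bases, -0.41 for the 35 of 600 to 1000 bases and -0.21 for the 24 longer ones. CON replicate 4 gave -0.42, -0.35 and -0.21. Among all 480 protein-coding genes under 600 bases the medians were -0.15 in GFR2 and -0.16 in CON replicate 4, so short members lay lower than short genes in general. The 26 cytosolic ribosomal protein genes under 600 bases lay lower still, at -0.60 and -0.49 in these libraries. The longer members too lay below long protein-coding genes, whose medians were 0.01 and 0.02.

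The first comparison, GF against CON, asked how the cortex differs without microbes. Most members had slightly higher levels in GF: 68 of 91 were higher (74.7%, against 51.7% of all genes tested), with a median log2 fold change of 0.06 (all genes, 0.01) and a range of -0.41 to 0.39. No member passed the quasi-likelihood test of edgeR, with p-values adjusted over all genes by Benjamini-Hochberg and a threshold of 0.1 (0 of 91, against 0.251% of the 15542 genes tested). A gene that passes is said here to be called. The lowest adjusted p of a member was 0.468. DESeq2 and limma-voom also called 0 members. At an unadjusted p under 0.05 there were 3 higher members (4.75% of all genes were higher) and 1 lower (3.94% were lower), near the shares in all genes. The higher members numbered 0 to 8 when 1 library was left out, with 8 without CON replicate 2 and 0 without CON replicate 4 or GF replicate 1. A single member, Ndufaf7, had every GF library above every CON library, where 2.53% of all genes did, and 0 lay wholly below, where 2.55% did. Without CON replicate 4 the median turned to -0.04, with 36 of 91 higher, and without CON replicate 2 it was 0.16, with 87 higher. Leaving out CON replicate 1 gave 0.09, and leaving out GF replicate 1 gave 0.03. Where less RNA is found in bulk tissue, fewer cells of a type and less RNA per cell cannot be told apart.

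The second comparison, exGF against CON, asked how the cortex differs after colonization from weaning. Most members had lower levels in exGF: 78 of 91 were lower (85.7%, against 52.1% of all genes tested), with a median log2 fold change of -0.14 (all genes, -0.01) and a range of -0.60 to 0.28. By edgeR 0 of 91 were called, against 0.0696% of 15813 genes, and DESeq2 and limma-voom again called 0. The lowest adjusted p was 0.774. At an unadjusted p under 0.05, 0 members were higher (2.46% of all genes) and 2 were lower (2.87% of all genes). No member had groups that did not overlap, with 0 above (1.78% of all genes) and 0 below (1.52%). The size of this difference rested on single libraries: the median was -0.03 without CON replicate 2, -0.09 without CON replicate 1, -0.05 without GFR2 and -0.24 without CON replicate 4. Without CON replicate 4, 31 members were lower at an unadjusted p under 0.05, and still 0 were called.

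The third comparison, exGF against GF, set colonization from weaning against lifelong absence of microbes. Nearly all members had lower levels in exGF: 85 of 91 were lower (93.4%, against 51.3% of all genes tested), with a median log2 fold change of -0.18 (all genes, -0.00) and a range of -0.43 to 0.39. By edgeR 0 of 91 were called, as were 0% of the 15569 genes tested, and DESeq2 and limma-voom called 0 members. The lowest adjusted p was 0.736. At an unadjusted p under 0.05, 0 members were higher (3.3% of all genes) and 21 were lower, which is 23.1% of the members against 3.35% of all genes. DESeq2 gave 22 lower members at that threshold and limma-voom 23. Every exGF library lay below every GF library for 5 members, which is 5.49% against 1.55% of all genes. These were Ndufb2, Ndufb5, Ndufv2, Ndufv3 and Uqcr11, of which the Nduf genes were chosen after their values were seen. In the other direction there were 0, against 1.77% of all genes.

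The difference between exGF and GF was smaller without GFR2. The median was then -0.10 and the lower members at an unadjusted p under 0.05 numbered 11. Without GFR1 that number was 32 and without GFR4 it was 33, with a median of -0.24 without GFR4. With CON replicates 2 and 4 and GFR2 all left out, the medians were 0.02 for GF against CON, -0.07 for exGF against CON and -0.10 for exGF against GF, and 0 members were called in each. CON libraries take no part in the last of these, which is the fit without GFR2. The comparisons with CON share the CON libraries, and the third shares its libraries with both, so the 3 sets of values are not independent.

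**Figure D2:**
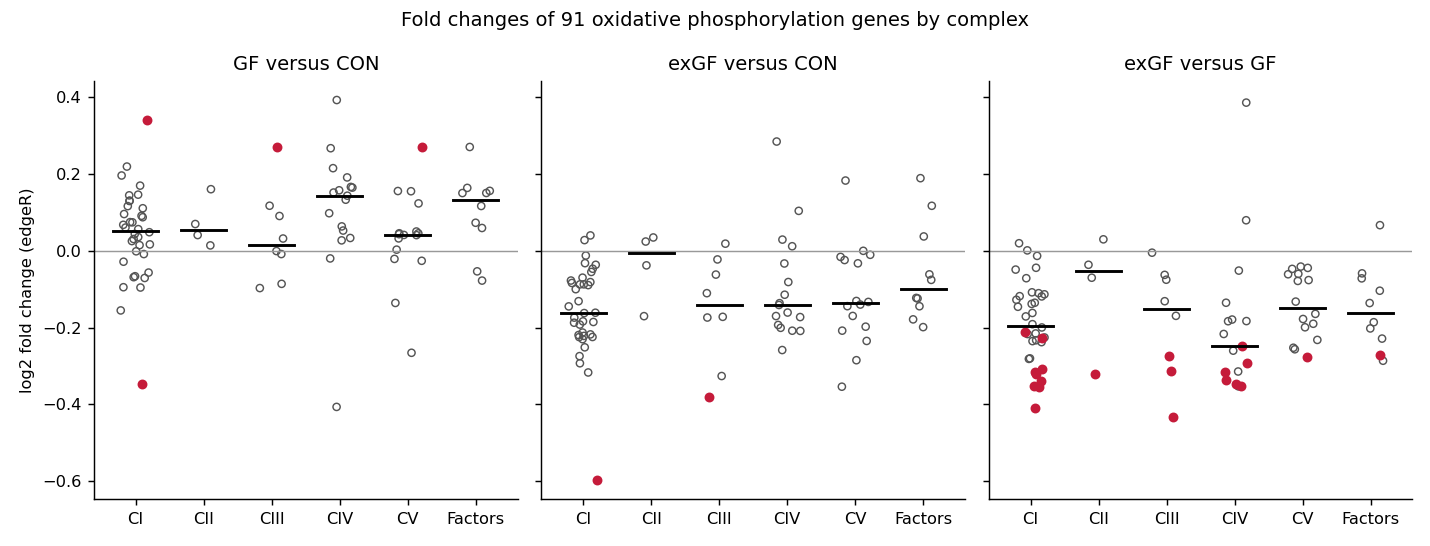
Log2 fold change of each tested member in the 3 comparisons, by complex and for the factors, with the median of each. Members lay mostly above 0 for GF against CON (median 0.06) and mostly below 0 for exGF against GF (median -0.18).

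Complex I, which oxidizes NADH, had median log2 fold changes of 0.05, -0.16 and -0.20 in the 3 comparisons taken in the same order. In exGF against GF 34 of its 36 subunits were lower, 9 of them at an unadjusted p under 0.05, and single values ran from -0.41 to 0.02. For GF against CON they ran from -0.35 to 0.34. Ndufc2 (ENSMUSG00000030647, chr7:97400003-97407802), a subunit of the membrane arm, had the lowest p of the complex for GF against CON and for exGF against GF. Its levels, given here and from here on in the order of replicates 1 to 4 and of GFR1 to GFR4, were 35.1, 39.0, 30.99 and 26.3 in CON, 43.3, 50.02, 36.1 and 36.9 in GF and 37.3, 31.6, 25.5 and 31.04 CPM in exGF. GF was the high group, overlapping CON only through CON replicate 2 and exGF only through GFR1. In log2 terms Ndufc2 differed by 0.34 (SE 0.133, adjusted p 0.468) for GF against CON and -0.41 (SE 0.132, adjusted p 0.736) for exGF against GF, with -0.08 for exGF against CON.

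Ndufs5 (ENSMUSG00000028648, chr4:123712710-123718202), an accessory subunit, had the lowest p of complex I for exGF against CON. It stood at 64.0, 59.8, 56.2 and 51.3 in CON, 55.7, 34.9, 37.6 and 54.0 in GF and 59.0, 20.7, 36.6 and 37.8 CPM in exGF. CON was the high group, GFR1 lay within it, and the other exGF libraries lay below every CON library, with GFR2 lowest of all. The fitted log2 fold change was -0.60 (SE 0.219, adjusted p 0.774) for exGF against CON and -0.35 (SE 0.142, adjusted p 0.500) for GF against CON. The former was -0.38 without GFR2.

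The Ndufs5 values are uncertain because part of its sequence occurs elsewhere. Of its 31-base words, 26.5% are also found in BC002163 (chr16:42955631-42955949), a processed pseudogene named after its values were seen. The counts of BC002163 came to 10.2, 12.2, 8.56 and 0.457 CPM in CON replicates 1 to 4, 13.7, 29.5, 25.8 and 16.1 CPM in GF and 7.66, 20.5, 23.0 and 24.0 CPM in exGF. They were high in several libraries where Ndufs5 was low and near 0 in CON replicate 4, so that Ndufs5 made up 50.2% to 99.1% of the summed level. That sum was 74.2, 72.0, 64.7 and 51.8 CPM in CON replicates 1 to 4, 69.4, 64.5, 63.5 and 70.1 CPM in GF and 66.7, 41.2, 59.5 and 61.9 CPM in exGF. On summed counts the log2 fold change was -0.21 (SE 0.146, adjusted p 0.963) for exGF against CON and 0.03 (SE 0.107) for GF against CON. In the sum GFR2 was the lowest library and CON replicate 4 the next. Over the alternatives, the summed counts among them, the adjusted p of Ndufs5 for exGF against CON was at least 0.319.

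Ndufa1 (ENSMUSG00000016427, chrX:37187588-37191163), a small accessory subunit, was the most abundant of the complex per kb. Its levels were 86.1, 76.7, 79.2 and 49.8 in CON, 65.5, 76.3, 78.5 and 85.2 in GF and 73.6, 44.1, 66.9 and 66.6 CPM in exGF. CON replicate 4 and GFR2 were the lowest and all 3 groups overlapped. Fitted log2 fold changes were 0.07 (SE 0.142, adjusted p 0.931) for GF against CON and -0.28 (SE 0.139, adjusted p 0.739) for exGF against GF.

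Ndufv2 (ENSMUSG00000024099, chr17:66078638-66101559), an iron-sulfur subunit of the NADH-oxidizing module, is given as an example of separated groups, chosen after its values were seen. It stood at 127, 145, 125 and 95.5 in CON, 146, 147, 148 and 132 in GF and 127, 93.8, 114 and 128 CPM in exGF. All GF libraries lay above all exGF libraries, and CON spanned from near the lowest exGF value up to the GF values. For exGF against GF this gave a log2 fold change of -0.31 (SE 0.101, adjusted p 0.736).

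Complex II, succinate dehydrogenase, had medians of 0.06, -0.01 and -0.05. In exGF against GF 3 of its 4 subunits were lower, 1 of them (Sdhb) at an unadjusted p under 0.05. Sdha (ENSMUSG00000021577, chr13:74322254-74350280), the flavoprotein that oxidizes succinate, stood at 443, 413, 425 and 410.5 in CON, 423, 434, 438 and 444 in GF and 452, 375, 397 and 433 CPM in exGF. All groups overlapped and GFR2 was the lowest library. Its log2 fold changes were 0.04, -0.04 and -0.07 in the 3 comparisons.

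Sdhb (ENSMUSG00000009863, chr4:140961203-140979193), the iron-sulfur subunit, had the lowest p of complex II in every comparison. It stood at 177, 171, 155 and 120.3 in CON, 181, 186, 169 and 159 in GF and 148, 105, 144 and 160.3 CPM in exGF. CON replicate 4 and GFR2 were lowest, and GF and exGF overlapped only where GFR4 exceeded GF replicate 4. Sdhb had log2 fold changes of -0.32 (SE 0.116, adjusted p 0.736) for exGF against GF, 0.16 (SE 0.110, adjusted p 0.721) for GF against CON and -0.17 (SE 0.140, adjusted p 0.968) for exGF against CON. Single libraries moved these values. Without CON replicate 4 the difference between GF and CON was 0.05. That between exGF and CON was -0.09 without CON replicate 1, -0.28 without CON replicate 4 and -0.05 without GFR2, and that between exGF and GF was -0.21 without GFR2.

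Sdhc and Sdhd anchor the complex in the membrane. Sdhc (ENSMUSG00000058076, chr1:171127165-171150603) stood at 70.2, 76.2, 69.5 and 60.3 in CON, 90.2, 62.2, 64.3 and 62.7 in GF and 71.6, 59.8, 68.0 and 85.0 CPM in exGF. GF replicate 1 was high and the groups overlapped, with log2 fold changes of 0.01, 0.03 and 0.03. Sdhd (ENSMUSG00000000171, chr9:50596357-50603812) stood at 87.6, 83.9, 87.4 and 80.3 in CON, 93.1, 81.5, 90.1 and 91.5 in GF and 99.8, 76.0, 77.6 and 93.6 CPM in exGF. Its groups overlapped too, with log2 fold changes of 0.07, 0.02 and -0.04.

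Complex III, which passes electrons from ubiquinol to cytochrome c, had medians of 0.02, -0.14 and -0.15. In exGF against GF 8 of 8 subunits were lower, 3 of them at an unadjusted p under 0.05. For GF against CON 4 were higher and 4 lower, from -0.10 to 0.27. Uqcrb (ENSMUSG00000021520, chr13:66900617-66905378), which lies near the ubiquinone site, had the lowest p of the complex for GF against CON and for exGF against GF, at 118, 109.9, 115 and 78.1 in CON, 124, 137, 117 and 129.7 in GF and 122, 63.8, 96.4 and 93.2 CPM in exGF. GF was highest, GFR2 lowest, and GFR1 alone of the exGF libraries reached the GF values. Uqcrb had log2 fold changes of 0.27 (SE 0.117, adjusted p 0.534) for GF against CON and -0.43 (SE 0.149, adjusted p 0.736) for exGF against GF. Leaving out CON replicate 4 brought the former to 0.15, and leaving out GFR2 brought the latter to -0.29. Other genes share 34.8% of its 31-base words.

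Uqcr11 (ENSMUSG00000020163, chr10:80402997-80406830), a small subunit and the most abundant of complex III per kb, stood at 136, 171, 116 and 82.4 in CON, 137, 129.7, 119 and 119.7 in GF and 103, 77.5, 112 and 114 CPM in exGF. Every exGF library lay below every GF library, while CON held both the highest library (replicate 2) and a low one (replicate 4). On the log2 scale the difference was -0.31 (SE 0.114, adjusted p 0.736) for exGF against GF and -0.00 for GF against CON.

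Uqcrq (ENSMUSG00000044894, chr11:53427922-53430831), another small subunit, had the lowest p of the complex for exGF against CON, at 87.9, 113, 79.8 and 56.8 in CON, 84.8, 80.9, 79.7 and 70.2 in GF and 63.6, 52.6, 69.2 and 75.5 CPM in exGF. All exGF libraries lay below CON replicates 1 to 3, but CON replicate 4 lay within them. The fit gave a log2 difference of -0.38 (SE 0.176, adjusted p 0.924), and -0.20 once CON replicate 2 was left out.

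Complex IV, cytochrome c oxidase, had the highest median of the complexes for GF against CON (0.14) and the lowest for exGF against GF (-0.25), with -0.14 for exGF against CON. In exGF against GF 15 of 17 tested subunits were lower, 6 at an unadjusted p under 0.05. Cox7c (ENSMUSG00000017778, chr13:86044816-86046904) had the lowest p there, at 127, 123, 117 and 81.3 in CON, 132, 137, 118 and 124 in GF and 107, 78.6, 96.2 and 119 CPM in exGF. GF and exGF overlapped only where GFR4 exceeded GF replicate 3, and the log2 fold change was -0.35 (SE 0.115, adjusted p 0.736). Other genes share 24.5% of its 31-base words.

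Cox7b (ENSMUSG00000031231, chrX:106015700-106022450) had the lowest p of complex IV for GF against CON, at 177, 179, 182 and 116 in CON, 211, 211, 178 and 188 in GF and 187, 109.6, 153 and 173 CPM in exGF. CON replicate 4 lay far below the rest of CON, and GF replicate 3 fell among the other CON libraries. The fit put the difference at 0.27 (SE 0.126, adjusted p 0.587) on the log2 scale, and at 0.13 once CON replicate 4 was left out.

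Cox5b (ENSMUSG00000061518, chr1:36691449-36693681), the zinc-binding subunit, had the lowest p for exGF against CON, at 163, 197, 144 and 99.7 in CON, 169.6, 167, 167 and 142 in GF and 117, 103, 135 and 152 CPM in exGF. The groups overlapped, with CON replicates 2 and 4 at either end. The log2 fold change was -0.26 (SE 0.177, adjusted p 0.955) there and -0.35 (SE 0.113, adjusted p 0.736) for exGF against GF. The difference from CON was -0.10 without CON replicate 2, -0.42 without CON replicate 4 and -0.16 without GFR2.

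Cox8a (ENSMUSG00000035885, chr19:7215153-7217616) was the most abundant member of all per kb, at 428, 424, 324 and 271 in CON, 438, 399, 431 and 332 in GF and 298, 298, 376 and 373 CPM in exGF. All groups overlapped. The log2 fold change was 0.14 (SE 0.136, adjusted p 0.808) for GF against CON and -0.25 (SE 0.110, adjusted p 0.739) for exGF against GF.

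Several complex IV subunits have isoforms known from muscle, testis, lung or low oxygen, and in these libraries the widespread form dominated each pair. Per kb of exon, Cox4i2 made up 0.357% to 1.09% of its sum with Cox4i1 over the 12 libraries. The share was 0.974% to 1.69% for Cox6a2 beside Cox6a1, 0.176% to 0.445% for Cox6b2 beside Cox6b1 and 1.05% to 2.06% for Cox7a1 beside Cox7a2. It was 0.310% to 1.31% for Cox7b2 beside Cox7b, at most 0.142% for Cox8b beside Cox8a, and 0.575% to 2.15% for Ndufa4l2 beside Ndufa4. Of these shares 2.15% was the highest in any library.

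The widespread forms were abundant in every library. Cox4i1 (ENSMUSG00000031818, chr8:120668222-120674207) stood at 402, 494, 343 and 289 in CON, 425, 398, 383 and 357 in GF and 365, 274, 334 and 402 CPM in exGF. Cox6a1 (ENSMUSG00000041697, chr5:115345642-115348981) stood at 294, 319, 237 and 185 in CON, 299, 278, 309.9 and 248 in GF and 199, 194, 260.5 and 257 CPM in exGF, and Cox6b1 (ENSMUSG00000036751, chr7:30616861-30626151), which lies near the cytochrome c site, at 257, 277, 251 and 176 in CON, 298, 259, 271 and 251 in GF and 236, 154, 227 and 263 CPM in exGF. Cox7a2 (ENSMUSG00000032330, chr9:79755361-79759878) stood at 167, 182, 175 and 118 in CON, 185, 155, 166 and 162 in GF and 165, 107, 148 and 167 CPM in exGF, and Ndufa4 (ENSMUSG00000029632, chr6:11900292-11907497) at 214, 248, 216 and 145 in CON, 219, 236, 196 and 208 in GF and 213, 124, 164 and 217 CPM in exGF. CON replicate 4 was the lowest library for Cox6a1 and GFR2 for the others, the highest was CON replicate 2 or GF replicate 1, and the groups overlapped. In the 3 comparisons the log2 fold changes were 0.03, -0.16 and -0.18 for Cox4i1; 0.13, -0.19 and -0.32 for Cox6a1; 0.17, -0.14 and -0.29 for Cox6b1; 0.05, -0.14 and -0.18 for Cox7a2; 0.06, -0.21 and -0.26 for Ndufa4. For exGF against GF the unadjusted p was 0.0143 for Cox6a1 and 0.0466 for Cox6b1.

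The tissue isoforms were low in every library. Cox6a2 (ENSMUSG00000030785, chr7:128205435-128206387) stood at 3.85, 4.56, 3.17 and 2.25 in CON, 4.61, 3.71, 2.95 and 4.13 in GF and 3.11, 2.68, 2.90 and 3.61 CPM in exGF, and Cox6b2 (ENSMUSG00000051811, chr7:4751792-4753094) at 1.27, 1.02, 1.09 and 0.914 in CON, 1.71, 0.716, 1.40 and 1.27 in GF and 1.33, 1.08, 1.55 and 1.29 CPM in exGF. Cox7a1 (ENSMUSG00000074218, chr7:30184144-30186078) stood at 1.48, 1.36, 1.06 and 0.914 in CON, 1.93, 1.43, 1.83 and 1.16 in GF and 1.12, 0.777, 1.77 and 1.23 CPM in exGF, Cox7b2 (ENSMUSG00000049387, chr5:71442824-71548205) at 0.246, 1.07, 0.545 and 0.266 in CON, 0.372, 0.537, 0.644 and 0.495 in GF and 0.331, 0.604, 0.388 and 0.511 CPM in exGF, and Ndufa4l2 (ENSMUSG00000040280, chr10:127514967-127517154) at 2.13, 3.16, 0.989 and 1.22 in CON, 2.38, 1.66, 2.36 and 1.98 in GF and 1.45, 2.16, 1.94 and 2.45 CPM in exGF. Cox4i2 (ENSMUSG00000009876, chr2:152754173-152765037) stood at 1.31, 2.73, 1.26 and 1.41 in CON, 2.38, 1.12, 0.698 and 0.991 in GF and 1.90, 1.08, 1.48 and 2.08 CPM in exGF, with CON replicate 2 apart from the other CON libraries. The groups of all 6 overlapped. Log2 fold changes in the 3 comparisons were 0.15, -0.17 and -0.31 for Cox6a2; 0.22, 0.28 and 0.08 for Cox6b2; 0.39, 0.03 and -0.35 for Cox7a1; -0.02, -0.21 and -0.18 for Cox7b2; 0.16, 0.10 and -0.05 for Ndufa4l2, with SE up to 0.484. Cox4i2 had 13 to 64 counts a library, and it gave both the lowest log2 fold change of the members for GF against CON (-0.41, SE 0.385) and the highest for exGF against GF (0.39, SE 0.357).

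Complex V, the ATP synthase, had medians of 0.04, -0.14 and -0.15, and in exGF against GF 16 of 16 subunits were lower, 1 at an unadjusted p under 0.05. Single values there ran from -0.28 to -0.04. Atp5a1 (ENSMUSG00000025428, chr18:77773729-77782869), the alpha subunit of the catalytic head, stood at 894, 895, 870.1 and 829 in CON, 882, 858, 935 and 919 in GF and 954, 772, 840.0 and 917 CPM in exGF. The libraries lay close together with GFR2 lowest, and the log2 fold changes were 0.04, -0.01 and -0.04.

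Atp5c1 (ENSMUSG00000025781, chr2:10056016-10080510), the gamma subunit of the rotating shaft, had the lowest p for exGF against GF, at 260.5, 259, 247 and 189 in CON, 255, 297, 264 and 248.9 in GF and 253, 180.1, 209.5 and 235 CPM in exGF. Of the exGF libraries GFR1 alone reached the GF range. The fit gave a log2 difference of -0.28 (SE 0.105, adjusted p 0.736).

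Atp5h (ENSMUSG00000034566, chr11:115415689-115419962), a subunit of the peripheral stalk, had the lowest p for exGF against CON, at 192, 251, 193 and 151 in CON, 188, 190.0, 204 and 193 in GF and 181, 120.3, 155 and 194 CPM in exGF. CON replicate 2 was highest, GFR2 lowest, and the groups overlapped. Its fitted log2 difference was -0.28 (SE 0.162, adjusted p 0.952), or -0.14 without CON replicate 2 and -0.15 without GFR2. Other genes share 25.4% of its 31-base words.

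The c subunit, which forms the rotating ring in the membrane, is encoded by Atp5g1, Atp5g2 and Atp5g3, whose mature proteins are the same. Atp5g1 (ENSMUSG00000006057, chr11:96068852-96075670) had the lowest p of complex V for GF against CON, at 124, 131, 125 and 95.7 in CON, 175, 130.1, 140.2 and 129 in GF and 133, 107, 135 and 168 CPM in exGF. CON replicate 4 was lowest and GF replicate 1 highest, and CON replicate 2 lay within GF. The log2 fold change was 0.27 (SE 0.117, adjusted p 0.538) for GF against CON, with 0.18 after CON replicate 4 was left out and 0.15 after GF replicate 1 was. Atp5g2 (ENSMUSG00000062683, chr15:102662864-102672352) stood at 35.5, 37.7, 34.5 and 30.9 in CON, 39.1, 34.3, 36.4 and 33.9 in GF and 35.7, 29.9, 34.1 and 39.6 CPM in exGF. Its groups overlapped fully, with a log2 fold change of 0.05 for GF against CON. Atp5g3 (ENSMUSG00000018770, chr2:73908447-73911326) stood at 172, 181, 155 and 122 in CON, 157, 163, 164 and 164 in GF and 149, 126, 145 and 158 CPM in exGF. CON held both its highest and its lowest library, and the log2 fold change was 0.04 for GF against CON and -0.16 for exGF against GF.

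The difference in Atp5g1 did not hold once a pseudogene was added to it. Gm10039 (chr11:100361716-100362126), named after its values were seen, has 92.9% of its 31-base words in Atp5g1 and stood at 21.6, 45.2, 33.1 and 20.98 CPM in CON replicates 1 to 4, 2.38, 1.79, 8.75 and 5.89 CPM in GF and 8.16, 5.31, 6.96 and 1.74 CPM in exGF. Every CON library lay above every GF and exGF library. It fell in GF against CON by 2.68 on the log2 scale (SE 0.382, adjusted p 0.0120) and in exGF against CON by 2.47 (SE 0.364, adjusted p 0.0267). The sum of both genes was 146, 177, 158 and 117 CPM in CON replicates 1 to 4, 177, 132, 149 and 135 CPM in GF and 141, 112, 142 and 169.8 CPM in exGF, with no group apart. On summed counts the log2 fold change for GF against CON was -0.00914 (SE 0.125, adjusted p 0.989). Over the alternatives, the summed counts among them, the adjusted p of Atp5g1 for GF against CON was 0.412 to 0.989. Which of the genes the shared reads came from was not tested. Of the 31-base words of Atp5g1, 7.23% are found in Gm10039 and 14.1% in other genes, Gm10039 included. In all, 12 of the 93 members, Atp5g1 not among them, have at least 20% of their 31-base words in another gene.

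**Figure D3:**
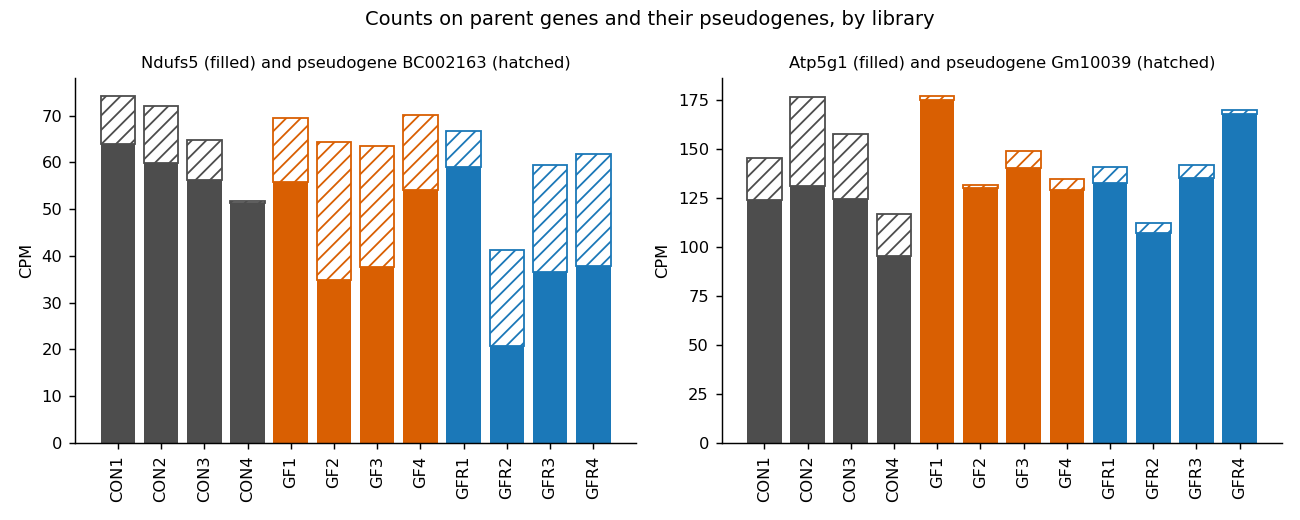
CPM of Atp5g1 with Gm10039 and of Ndufs5 with BC002163 in each of the 12 libraries, alone and summed. Gm10039 lay between 20.98 and 45.2 CPM in CON and between 1.74 and 8.75 CPM in GF and exGF.

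Among the 10 factors the medians were 0.13, -0.10 and -0.16, and 9 of 10 were lower in exGF than in GF. Cox7a2l (ENSMUSG00000024248, chr17:83501918-83517330), which joins complexes III and IV into supercomplexes, was the most abundant per kb, at 105, 119, 99.4 and 82.4 in CON, 124, 104, 108 and 90.99 in GF and 97.1, 81.7, 89.5 and 107 CPM in exGF. Its groups overlapped, with log2 fold changes of 0.07, -0.12 and -0.19.

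Atp5s (ENSMUSG00000054894, chr12:69724950-69744660) had the lowest p of the factors for GF against CON, at 12.9, 17.6, 10.8 and 12.3 in CON, 15.5, 14.2, 16.5 and 18.4 in GF and 15.7, 16.1, 15.3 and 14.4 CPM in exGF. CON replicate 2 lay among the GF libraries and the other CON libraries lay below them. This amounted to a log2 difference of 0.27 (SE 0.148, adjusted p 0.637), with 0.43 after CON replicate 2 was left out and 0.18 after CON replicate 3 was.

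Ndufaf5 (ENSMUSG00000027384, chr2:140170649-140203689), an enzyme of complex I assembly, had the lowest p for exGF against CON, at 38.1, 37.5, 37.6 and 30.8 in CON, 38.1, 34.4, 34.1 and 32.4 in GF and 34.3, 28.4, 31.01 and 32.5 CPM in exGF. CON replicate 4 alone of the CON libraries lay within exGF. This amounted to a log2 difference of -0.20 (SE 0.0989, adjusted p 0.940).

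Ndufaf2 (ENSMUSG00000068184, chr13:108002715-108158623), a complex I assembly factor, had the lowest p for exGF against GF, at 16.1, 14.9, 18.8 and 14.7 in CON, 17.8, 17.6, 19.3 and 17.3 in GF and 17.9, 13.4, 14.0 and 14.3 CPM in exGF. GFR1 lay among the GF libraries and the other exGF libraries below them, and the log2 fold change was -0.27 (SE 0.114, adjusted p 0.736). Its counts are uncertain, because 65.6% of its exonic bases lie in exons of B230220B15Rik on the opposite strand and pairs were counted without regard to strand. In all, 29 members overlap exons on the opposite strand, 4 of them (Atp5o, Ndufa13, Ndufaf2 and Ndufb6) over at least 20% of their exonic bases.

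Ndufaf7 (ENSMUSG00000024082, chr17:78937136-78948052), another factor of complex I assembly, was the member whose groups did not overlap in GF against CON and was chosen after its values were seen. It stood at 27.3, 27.8, 27.7 and 25.2 in CON, 32.5, 30.3, 28.7 and 28.3 in GF and 31.4, 26.2, 25.8 and 28.0 CPM in exGF. GF lay wholly above CON, by a fitted 0.15 (SE 0.0898, adjusted p 0.667) in log2 units.

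Other genes of respiration gave these values beside the members. Of the 13 subunits encoded in mitochondrial DNA 7 were tested for GF against CON, and 7 were higher, with a median of 0.13 and 0 called. For exGF against GF 8 of 8 were lower, with a median of -0.20, but the added gene, mt-Co2, averaged under 1 CPM in each group and its value (-0.26, SE 0.394) says little. Tricarboxylic acid cycle genes were higher in GF than in CON for 13 of 13, with a median of 0.06, and lower in exGF than in GF for 12 of 13, with a median of -0.06. Glycolysis genes had medians of 0.00 in both of these comparisons. Assembly factors outside the prefixes had medians of 0.08 and -0.11, and electron carriers and subunits outside the prefixes 0.11 and -0.11. By edgeR none of these lists held a called gene in any of the 3 comparisons. At an unadjusted p under 0.05 there were 2 higher assembly factors and 1 higher tricarboxylic acid cycle gene for GF against CON, and 1 lower assembly factor and 1 lower carrier or subunit for exGF against GF.

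The ribosomal protein genes resembled the members in the comparisons with exGF. Cytosolic ribosomal protein genes were lower in exGF than in GF for 76 of 80, with a median of -0.19 and 18 lower at an unadjusted p under 0.05, and lower than in CON for 79 of 81, with a median of -0.21. For GF against CON their median was 0.00. Mitochondrial ribosomal protein genes were lower in exGF than in GF for 74 of 77, with a median of -0.14 and 7 lower at an unadjusted p under 0.05. EdgeR called 0 of either list in the 3 comparisons.

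Regulators of mitochondrial biogenesis were not called by edgeR either, with 2 higher for GF against CON at an unadjusted p under 0.05. Ppargc1a, a coactivator of respiratory genes, averaged 43.6 ± 5.11 CPM over the CON libraries, 53.3 ± 6.69 over the GF libraries and 50.1 ± 6.71 over the exGF libraries (SD, n = 4). Its log2 fold change for GF against CON was 0.29 (SE 0.111, adjusted p 0.445). The 12 regulators had medians of 0.08, 0.02 and -0.08 in the 3 comparisons.

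Among the cell type markers 1 list held called genes. Of 8 mature oligodendrocyte markers 8 were higher in GF than in CON, with a median log2 fold change of 0.84. EdgeR called 7 of these markers, against 0.251% of all genes tested. Their median was 0.19 for exGF against CON and -0.63 for exGF against GF, with 0 called by edgeR in both. In the latter 7 were lower at an unadjusted p under 0.05, where 3.35% of all genes were. They summed to 2503, 2500, 2040 and 2156 CPM in CON, 3893, 3247, 5443 and 4092 CPM in GF and 3008, 2212, 2024 and 3425 CPM in exGF. Mbp was the most abundant, at 983 to 2565 CPM, and 0 of the markers were at 0. GFR2 and GFR3 were low within exGF for these markers and lay near the CON libraries. Striatal markers were high in CON replicate 2 and in GFR4, with median deviations of 1.195 and 0.765, where those of the members were 0.25 and 0.07. The markers of excitatory and inhibitory neurons, oligodendrocyte precursors, astrocytes, microglia, endothelium, pericytes, choroid plexus, striatum, blood and skeletal muscle had 0 called genes in each comparison by edgeR, and at most 3 of a list (microglia, lower in exGF than in CON) passed an unadjusted p of 0.05.

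Without calls, these lists gave the following values, with medians of log2 fold changes. For GF against CON the members had 0.06. Excitatory neuron markers were higher there for 6 of 6 (median 0.11) and inhibitory neuron markers for 5 of 6 (0.13, 1 at an unadjusted p under 0.05). Blood markers were higher for 3 of 4 (0.38, 1 at that threshold), but Hbb-bs, the most abundant, was lower (-0.20). In sum the blood markers averaged 147.7 CPM in CON and 148.7 CPM in GF. Striatal markers were lower for 4 of 5 (-0.48, 0 at that threshold), endothelial markers for 4 of 4 (-0.16, 2), choroid plexus markers for 3 of 4 (-0.17, 1) and microglial markers for 3 of 5 (-0.11, 1). For exGF against CON, where the members had -0.14, microglial markers were lower for 4 of 5 (-0.22, 3 at an unadjusted p under 0.05), astrocyte markers for 4 of 5 (-0.09, 2) and blood markers for 3 of 4 (-0.09, 1), and pericyte markers were higher for 3 of 4 (0.12, 0). For exGF against GF, where the members had -0.18, blood markers were lower for 4 of 4 (-0.46, 2 at an unadjusted p under 0.05), and the medians of excitatory and inhibitory neuron markers were -0.06 and -0.04. Striatal markers were higher there for 4 of 5 (0.33, 1 at that threshold), endothelial markers for 4 of 4 (0.18, 1) and choroid plexus markers for 3 of 4 (0.12, 0). The part of cell composition in the members' levels was not tested.

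Promoters are shown as a description of the members, and their part in the levels of the libraries was not tested. RefSeq promoters (GRCm38.p6, 250 bases before to 50 after the start) were found for 76 of the 93 members and searched on both strands for motifs known from respiratory genes. The core motif of nuclear respiratory factor NRF1 (GCGC, any base, T and GCGC) occurred in 19 of 76 (25.0%), against 7.17% of 17492 protein-coding genes and 5.19% of all 27025 genes. CCGGAAG, a motif of ETS factors, occurred in 18 (23.7%), against 12.9% and 9.93%. AAGATGGCG, a motif of YY1, occurred in 8 (10.5%), against 2.14% and 1.64%. TATAAA occurred in 7 (9.21%), against 14.8% and 15.7%. At least 1 of the motifs of NRF1, ETS factors and YY1 was present in 38 members, and no such motifs overlapped. NRF1 letters were found in 7 of 32 promoters of complex I, 2 of 3 of complex II, 1 of 5 of complex III, 1 of 13 of complex IV, 6 of 14 of complex V and 2 of 9 of the factors. A match of letters is a description and not a measured binding site.

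The NRF1 letters, in capitals, are printed with their flanks for 1 member of each complex and 1 factor, so that they can be compared. Uqcrc1 and Cox6a1 were the sole members of complexes III and IV with a match, and each holds 2, of which 1 is printed. The letters of Ndufs5, Sdhd and Atp5c1 are the reverse complement of the motif, and those of the other genes read the same on both strands. All lie on the minus strand of GRCm38.p6 except those of Uqcrc1 and Ndufaf5, are read 5′ to 3′ on the gene's strand and come from RefSeq.
Ndufs5 (chr4:123718265-123718294): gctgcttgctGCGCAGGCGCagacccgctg
Sdhd (chr9:50603909-50603938): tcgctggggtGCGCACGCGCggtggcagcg
Uqcrc1 (chr9:108936668-108936697, plus strand): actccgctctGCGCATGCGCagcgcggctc
Cox6a1 (chr5:115349101-115349130): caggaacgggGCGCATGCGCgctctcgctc
Atp5c1 (chr2:10080430-10080459): ctgagctcccGCGCACGCGCactgagtccc
Ndufaf5 (chr2:140170652-140170681, plus strand): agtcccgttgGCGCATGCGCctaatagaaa

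ETS letters in capitals are printed for 3 members described above, on the gene's strand and from RefSeq. The letters of Cox8a are the reverse complement of the motif. Cox8a holds another match, at chr19:7217568-7217594, which is not printed.
Sdhb (chr4:140961267-140961293, plus strand): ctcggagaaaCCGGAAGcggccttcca
Uqcr11 (chr10:80406871-80406897, minus strand): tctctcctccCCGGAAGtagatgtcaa
Cox8a (chr19:7217605-7217631, minus strand): ttccgaaataCTTCCGGctcgggcgtc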

How the data were processed

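The deposited table holds raw counts of read pairs per gene. Per the submitters' processing notes, the authors trimmed reads with Trimmomatic 0.32, aligned them with STAR 2.3.1u and counted them with HTSeq 0.6.0, without regard to strand from a stranded kit. The paper's supplementary methods name another version of STAR. Pairs not assigned to a gene were left out. GENCODE M21 (GRCm38) gave names, lengths and transcripts.

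Each pair of groups was fitted on all genes (R 4.3.3): edgeR 4.0.16, filterByExpr, TMM, quasi-likelihood test, Benjamini-Hochberg adjustment, called at an adjusted p under 0.1. Alternatives used limma 3.58.1 (voom), DESeq2 1.42.0 and other scalings, filters and libraries. Libraries of the same group differed by a chi-square of 9.26 to 40.2 on average over genes, where counting error alone gives about 1. Log2 CPM used a prior count of 1. Words of 31 bases were compared between annotated transcripts, not over the genome.

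The members and lists were chosen with earlier results of these data known. Named in full were any called member, the member of each complex with the lowest unadjusted p in each comparison, its most abundant member per kb, the Sdh genes, the genes of subunit c and the tissue isoforms with their widespread forms. Others were named as said in the text.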

Additional observations from a re-analysis of the deposited data

Results flagged for a closer look

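In 5 of 132 groups of 4 libraries checked, 1 library lay far from the other libraries of its group. Chance gives about 1 in 20 groups, and the number found does not exceed it. The groups share libraries and are not independent, so this count cannot show whether a single flagged value arose by chance. Cox7b stood at 116.4 CPM in CON replicate 4, against 177 to 182 in the other CON libraries. Cox5b stood at 142.4 CPM in GF replicate 4, against 167 to 169.6. Ndufaf5 stood at 30.8 CPM in CON replicate 4, against 37.5 to 38.1. Sdhc stood at 90.2 CPM in GF replicate 1, against 62.2 to 64.3. Cox4i2 stood at 2.73 CPM in CON replicate 2, against 1.26 to 1.41. The causes were not tested.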

How the results depend on the processing

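In every alternative run, 0 members were called in each comparison. Members lower in exGF than in GF at an unadjusted p under 0.05 numbered 21, and 35 with a length and GC correction. With CON replicate 4 and GFR2, or CON replicates 2 and 4 and GFR2, left out (both chosen after seeing the data) they numbered 11, which for this comparison is the same fit as leaving out GFR2 alone. Leaving out 1 library at a time gave 11 to 33. Over the alternatives apart from leaving out 1 library, members lower in exGF than in CON at that threshold numbered 1 to 10, where the main fit gave 2. Members higher in GF than in CON numbered 0 to 7, where the main fit gave 3. The causes of these shifts were not tested.

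Leaving out 1 library at a time, the median log2 fold change of the members ran from -0.04 to 0.16 for GF against CON, from -0.24 to -0.03 for exGF against CON and from -0.24 to -0.10 for exGF against GF. Scalings and tools kept the signs of the medians. Of 18 named differences followed under the alternatives, 1 reversed: Atp5g1 in GF against CON was -0.00914 with pseudogene counts added, an alternative chosen after seeing the data. Several others, such as Cox5b (-0.42 to -0.10) and Sdhb (-0.28 to -0.05) in exGF against CON, differed in size with 1 library left out, as given with each member.

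With the replicate number as a block, GF against CON gave 0 called members and a median of 0.07. As a pairing check, libraries of the same number correlated at -0.05 to 0.03, so the numbers showed no pairing, and the exGF libraries have none.

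Counts without strand, shared sequence and pooling limit single members. Over all genes, called numbers in the other alternatives with all libraries ran from 31 to 221 for GF against CON, 7 to 60 for exGF against CON and 0 to 32 for exGF against GF.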

Other observations

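Of the 13 subunits encoded in mitochondrial DNA, mt-Nd3, mt-Nd4l, mt-Co2, mt-Co3, mt-Atp6 and mt-Atp8 averaged under 1 CPM in each group, while mt-Co1 averaged 21403 CPM for CON, 23382 for GF and 20402 for exGF. The counts of these 6 genes therefore say little about their transcripts, and the cause was not tested. Usmg5, a small subunit of the ATP synthase outside the prefixes, averaged 143 ± 39.1 CPM for CON, 159.6 ± 28.2 for GF and 117 ± 29.0 for exGF (SD, n = 4), with a log2 fold change of -0.45 for exGF against GF (SE 0.166, adjusted p 0.736 by edgeR's quasi-likelihood test).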
